A study of Mus musculus with 71 samples.

Results

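Genes with lower messenger RNA in brain tissues of mice lacking GLP or G9a were followed here: Amn, Slc5a5, Reep6, Kazald1, Crlf2, Il17rc and C1qtnf12. All but Il17rc fell in more than 1 region, and Il17rc was tested in the striatum alone, where it fell in both deletions. These 7 of the 18193 genes represented on the arrays are read by 12 probe sets, and 4 of them have a single probe set. They were chosen because their values had fallen in mutant tissues in these same arrays, without a stated cut-off, so their mutant and control values below are a description and not a test of that choice. Of the 12596 genes tested in at least 1 tissue, 311 fell in 1 or more of 8 tissue comparisons and 60 in 2 or more, a set that holds all 7 genes.

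The series holds 71 arrays of mouse brain RNA in 20 groups, from mice 10 to 14 weeks old. In the GLP tissue groups, mutants were Camk2a-Cre; GLPfl/fl mice and controls were their GLPfl/fl littermates, and in the G9a tissue groups mutants were Camk2a-Cre; G9afl/fl mice and controls their G9afl/fl littermates, so controls carried the floxed alleles without Cre. Hippocampus, hypothalamus, striatum and cortex were taken from each, with 4 arrays per group except 3 for G9a hippocampus controls and 2 each for G9a cortex mutants and controls. The other 12 arrays, 3 per group, held polyribosome-bound RNA pulled down from medium spiny neurons (MSN) of the striatum, each from a pool of 5 mice. Pools labelled mutant came from G9afl/fl mice with both Drd1-Cre and Drd1-bacTRAP, or both Drd2-Cre and Drd2-bacTRAP, and control pools from G9afl/fl mice with the matching bacTRAP transgene but no Cre, so both carried the tag on ribosomes of that neuron type. Camk2a-Cre acts in forebrain neurons after birth, while whole tissue also holds cells without Cre.

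GLP (gene Ehmt1) and G9a (gene Ehmt2) act as partners that methylate lysine 9 of histone H3, a mark found mainly on silent genes. The 7 genes have no pathway in common and belong mostly to biology described outside the brain. Amn encodes amnionless, which joins cubilin to form the receptor for vitamin B12 bound to intrinsic factor in the gut and takes up filtered proteins in the kidney. Slc5a5 encodes the sodium/iodide symporter of the thyroid, and Reep6 a protein that shapes the endoplasmic reticulum and is needed in rod photoreceptors. Crlf2 encodes the receptor chain for the cytokine TSLP, and Il17rc a subunit of the receptor for the cytokines IL-17A and IL-17F. Kazald1 and C1qtnf12 encode secreted proteins, the first with an insulin-like growth factor binding domain and a Kazal domain, the second the hormone adipolin of the C1q/TNF family.

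Promoter windows, from 250 bases before to 50 bases after a gene's start, were found in RefSeq (GRCm38.p6) for 5 of the 7 genes, Amn, Slc5a5, Kazald1, Crlf2 and Il17rc. They are shown, 5′ to 3′ on the gene's strand, for the pair that fell in the most tissues (Amn and Slc5a5), for Crlf2, and for Il17rc, which was tested only in the striatum and fell there in both deletions. Capitals mark the GC box (GGGCGG or its reverse CCGCCC) and the E-box (CACGTG).
Amn, chr12:111270846-111271145, plus strand: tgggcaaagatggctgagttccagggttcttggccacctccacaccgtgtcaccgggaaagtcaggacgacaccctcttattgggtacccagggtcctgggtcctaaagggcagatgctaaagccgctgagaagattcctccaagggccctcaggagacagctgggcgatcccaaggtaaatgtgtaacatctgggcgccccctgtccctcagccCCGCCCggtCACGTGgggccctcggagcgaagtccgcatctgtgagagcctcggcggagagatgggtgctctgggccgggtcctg
Slc5a5, chr8:70892708-70893007, minus strand: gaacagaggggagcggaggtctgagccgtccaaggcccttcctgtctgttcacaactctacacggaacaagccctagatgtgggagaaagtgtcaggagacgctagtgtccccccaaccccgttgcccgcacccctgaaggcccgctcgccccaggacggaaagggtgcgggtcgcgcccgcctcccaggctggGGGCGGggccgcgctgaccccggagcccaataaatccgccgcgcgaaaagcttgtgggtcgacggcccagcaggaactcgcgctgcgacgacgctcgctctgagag
Crlf2, chr5:109558944-109559243, minus strand: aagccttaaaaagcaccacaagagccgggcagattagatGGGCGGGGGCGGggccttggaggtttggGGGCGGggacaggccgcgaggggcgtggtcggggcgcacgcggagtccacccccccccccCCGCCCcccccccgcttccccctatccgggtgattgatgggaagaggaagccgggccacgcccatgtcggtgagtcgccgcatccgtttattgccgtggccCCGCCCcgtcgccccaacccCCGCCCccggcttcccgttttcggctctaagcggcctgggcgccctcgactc
Il17rc, chr6:113471205-113471504, plus strand: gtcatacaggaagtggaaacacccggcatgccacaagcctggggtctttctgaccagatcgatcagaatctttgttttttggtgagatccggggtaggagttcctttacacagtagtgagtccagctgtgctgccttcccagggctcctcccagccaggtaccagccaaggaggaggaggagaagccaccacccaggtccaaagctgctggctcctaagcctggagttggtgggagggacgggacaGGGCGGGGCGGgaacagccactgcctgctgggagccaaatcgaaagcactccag
All 6 windows of these 5 genes (Kazald1 has 2) held at least 1 GC box on either strand, against 35.7% of the 32851 windows in the table. Crlf2 held 6 that do not overlap, Il17rc held 2 that overlap, and the windows of Amn, Slc5a5 and Kazald1 held 1 each. The E-box was present only in the Amn window, and 7.15% of all windows hold it. A CCAAT box (CCAAT or ATTGG) was present for Amn and Slc5a5, against 37.4% of all windows, and a TATA box (TATAAA or TTTATA) in 0 of 6 windows, against 13.6%. The ratio of observed to expected CG pairs was 0.862 for Slc5a5, 0.808 for Crlf2, 0.515 for Amn and 0.273 for Il17rc, where the median of all windows was 0.384. These matches describe letters in the windows and are not binding sites.

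Every array had a median intensity of 1, so on the log2 scale used throughout 0 is the array median, and the number of arrays limits the precision. Each region's marker list had its highest mean level in the region named. Ehmt1 stood at 58.9% to 89.8% of control in GLP tissues, not called in the hypothalamus, and Ehmt2 at 29.5% to 49.2% in G9a tissues. In the pools, Ehmt2 was 5.01, 1.56 and 4.93 in Drd1-MSN mutants against 6.22, 5.93 and 5.49 in controls, where mutant 2 stood apart with the lowest mean correlation to its group (0.933). In the Drd2-MSN pools labelled mutant, Ehmt2 stood at 6.04, 5.91 and 5.99, against 5.18, 6.07 and 6.93 in control pools. This was 94.5% of control (-0.08, SE 0.75). The fall that the label implies was thus not seen, and with this SE its presence or absence cannot be told. Markers of other tissue moved with some groups: 12 of 13 choroid plexus markers were higher in the GLP hippocampus, with mean levels of 3.49 to 4.42 in mutants against 0.20 to 2.55 in controls. In the G9a hippocampus, 1 of 7 tested choroid plexus markers and 3 of 6 meningeal ones were higher, with mean meningeal levels of 1.88 to 3.14 in mutants against 1.31 to 1.78 in controls. Of 6 tested cortex markers, 2 were higher in the G9a hippocampus and 2 in the G9a striatum, where their mean levels were 3.29 to 3.60 in mutants against 2.62 to 3.42 in controls. Of 3 tested pituitary hormone genes, Gh was higher in the G9a hypothalamus, with mean levels of the list at -0.63 to 2.10 in mutants against -1.66 to -0.18 in controls. In the G9a striatum, mean choroid plexus levels ran from 1.09 to 3.51 in mutants and from -0.93 to 4.02 in controls. Of 11 choroid plexus markers tested there, 0 were called. Single markers of other regions were called too. In the G9a hypothalamus Drd1, of 7 tested striatum markers, rose by 1.11, and Lamp5, of 5 tested cortex markers, fell by 0.54. Of 4 tested hippocampus markers, Tdo2 rose by 2.98 in the GLP cortex and 3.05 in the G9a cortex. Wfs1, of 3 tested hippocampus markers, rose by 0.65 in the GLP hypothalamus. The part of all these markers in the results was not tested.

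The 7 genes were lower in mutant tissue in 35 of 56 pairs of gene and tissue by limma's test, and higher in 0 (of all genes tested, 1.75%, 0.832%, 1.16% and 1.32% were called higher in GLP hippocampus, hypothalamus, striatum and cortex, and 2.27%, 1.58%, 1.88% and 0.634% in the same G9a regions). A call means a Benjamini-Hochberg adjusted p under 0.05 over all genes tested in that comparison, where a gene was tested only if enough arrays lay above the array median. In the GLP mutants, 3 genes fell in the hippocampus (5 tested; 0.317% of all genes tested there were called lower), 4 in the hypothalamus (6 tested; 0.191%), 6 in the striatum (6 tested; 0.511%) and 6 in the cortex (6 tested; 0.224%). In the G9a mutants, 3 fell in the hippocampus (6 tested; 0.477%), 4 in the hypothalamus (6 tested; 0.741%), 5 in the striatum (7 tested; 1.15%) and 4 in the cortex (6 tested; 0.103%). Every mutant array lay below every control array for 4, 5, 5 and 6 of the 7 genes in GLP hippocampus, hypothalamus, striatum and cortex, as for 3.03%, 1.04%, 3.04% and 4.19% of all genes tested. In G9a mutants this held for 5, 5, 6 and 6 genes in the same regions, as for 4.51%, 1.29%, 5.3% and 27.4% of all genes, the last in groups of 2 arrays. The genes were chosen on these contrasts, so the counts stand beside those shares without a reading. The median change of the 7 genes ranged from -1.22 in the GLP striatum to -0.32 in the G9a hippocampus, where the median of all genes tested lay at -0.02 and 0.03. In bulk tissue, fewer cells of a type and less RNA per cell cannot be told apart.

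**Figure D1:**
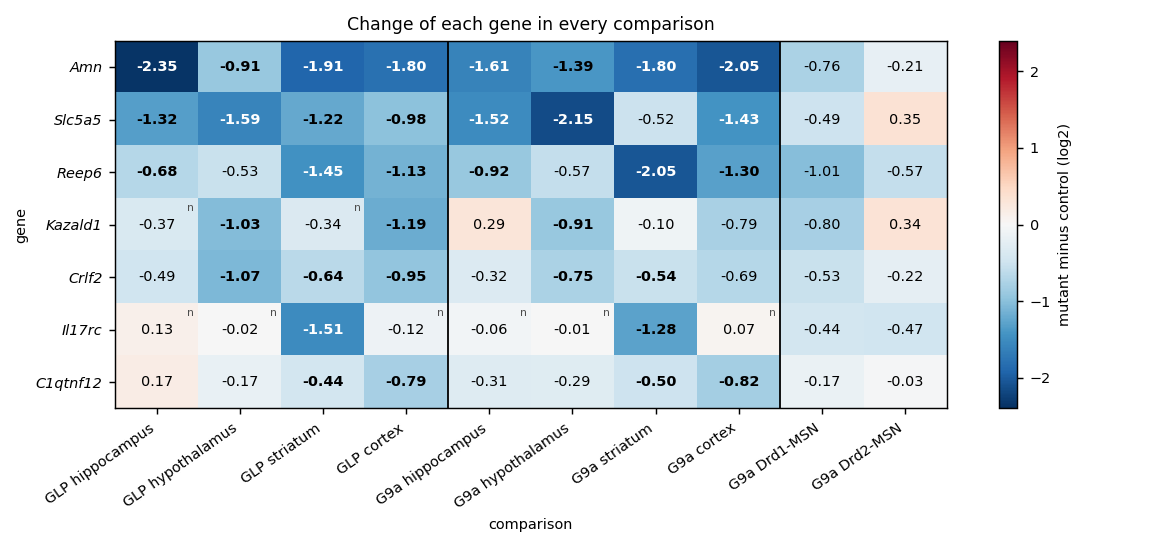
Change of each gene (rows) in each of 10 comparisons (columns), as mutant minus control on the log2 scale; blue is lower in mutants, bold numbers passed the adjusted threshold and n marks a gene not tested there. Amn is blue and bold in all 8 tissue columns, Il17rc in the striatum columns alone, and no number is bold in the Drd1-MSN and Drd2-MSN columns.

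Amn was lower in all 8 tissue comparisons, by 1.73 on average on the log2 scale, and no mutant array reached a control array in any region. In the GLP hippocampus it stood at -0.27, -1.35, -0.66 and -0.01 in mutants, against 1.89, 1.90, 2.02 and 1.29 in controls. Every mutant was under the array median there and every control above it, a difference of -2.35 (SE 0.24), which is at least 3.43-fold lower when the mutants are set to the median. In the G9a hippocampus Amn stood at 0.47, 0.41, 0.29 and 0.88 in mutants, against 2.39, 1.96 and 2.01 in controls, a difference of -1.61 (SE 0.26). In the G9a cortex it stood at -0.14 and -0.10 in mutants, against 2.08 and 1.78 in controls. Both mutants lay under the median and both controls well above it, a fall of at least 3.81-fold. The smallest difference was in the GLP hypothalamus, at 0.82, 0.56, 0.74 and 0.58 in mutants against 1.83, 1.71, 1.41 and 1.38 in controls. That difference of -0.91 (SE 0.24) was near the threshold, and its call was lost without any 1 of mutants 2, 3 and 4 and controls 1 and 2, without the filter, with every probe set tested and with the replicate number as a block. In the striatum Amn lay at -1.81 to -0.64 in GLP mutants against 0.52 to 0.65 in GLP controls, and at -1.81 to -0.61 in G9a mutants against 0.67 to 0.72 in G9a controls. The controls were thus lowest in this region, and with mutants set to the median the falls were at least 1.50-fold (GLP) and 1.62-fold (G9a).

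Slc5a5, the iodide carrier, was called lower in 7 tissues and its groups did not overlap in any of the 8. In the G9a hypothalamus it stood at 0.87, 0.84, -0.40 and -0.11 in mutants, against 2.89, 2.45, 2.22 and 2.24 in controls. This was its largest difference, -2.15 (SE 0.20), and mutants 1 and 2 lay above mutants 3 and 4. GLP hypothalamus values were 0.13, -0.33, -0.14 and -0.13 in mutants, against 1.54, 1.68, 1.48 and 1.18 in controls. The GLP mutants lay around the median, at least 2.71-fold below their controls. In the hippocampus, GLP mutants lay at 0.91 to 1.40 against 1.82 to 2.71 in controls, and G9a mutants at 0.59 to 1.00 against 2.16 to 2.40 in controls. In the cortex, GLP mutants lay at 0.98 to 1.27 against 1.92 to 2.24 in controls, and G9a mutants at 0.80 and 0.93 against 2.37 and 2.22 in controls. The G9a cortex call was lost without mutant 1 or without control 1. The striatum again had the lowest controls, with GLP mutants at -1.16 to -0.30 against 0.46 to 0.84 in controls (-1.22, SE 0.20; the call was lost with the replicate number as a block). All 4 of those mutants lay below the median, so the fall is at least 1.53-fold. In the G9a striatum, at -0.18 to 0.13 in mutants against 0.29 to 0.83 in controls, the difference of -0.52 (SE 0.20) was not called. The other Slc5a5 probe set, 1422113_at, lay below the array median in every array, at -3.36 to -0.28 in mutants and -3.25 to -0.35 in controls, and gives no separate reading.

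Reep6, the reticulum-shaping protein, was called in 6 tissues and showed its largest differences in the striatum. In the G9a striatum it stood at 0.67, 0.09, 0.39 and 0.26 in mutants, against 2.84, 2.00, 2.35 and 2.44 in controls. The groups lay more than 1 log2 unit apart, with a mean difference of -2.05 (SE 0.18), 24.1% of control. In the GLP striatum it stood at 1.22, 0.80, 0.85 and 0.63 in mutants, against 1.90, 2.82, 2.59 and 1.98 in controls, a difference of -1.45 (SE 0.18). In the cortex, GLP mutants lay at 1.02 to 1.16 against 1.96 to 2.41 in controls, and G9a mutants at 0.98 and 1.00 against 2.34 and 2.24 in controls, a call lost without control 1. The mutant cortex arrays of both deletions thus sat close together, within 0.98 to 1.16. In the hippocampus the differences were -0.68 (SE 0.18) in GLP mutants, a call lost without mutant 1 or control 1, 2 or 3, and -0.92 (SE 0.20) in G9a mutants. In the hypothalamus they were -0.53 (GLP) and -0.57 (G9a), neither called. The G9a hypothalamus was the only tissue where Reep6 groups overlapped, at 1.29 to 1.87 in mutants against 1.60 to 2.28 in controls.

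Crlf2, the TSLP receptor chain, differed by less, -0.68 on average with 5 tissues called, and its groups did not overlap in any of the 8 tissues. Crlf2 in the GLP hypothalamus stood at 1.39, 1.31, 0.64 and 1.32 in mutants, against 1.87, 2.35, 2.65 and 2.07 in controls. The difference was -1.07 (SE 0.16), with mutant 3 well under the other mutants. In the GLP cortex it stood at 1.84, 1.85, 1.27 and 1.80 in mutants, against 2.36, 2.80, 2.93 and 2.46 in controls (-0.95, SE 0.16). In the G9a hypothalamus, mutants lay at 1.79 to 2.34 against 2.71 to 3.10 in controls (-0.75, SE 0.16). Both hypothalamus calls were lost with the compared groups fitted alone and with the replicate number as a block. In the striatum the differences were -0.64 (GLP), a call lost without mutant 3 or 4 or control 2 or 3 and under the block, and -0.54 (G9a), a call lost under quantile normalization and without any 1 of 7 of its 8 arrays, all but control 4. The hippocampus (-0.49 in GLP and -0.32 in G9a mutants) and the G9a cortex (-0.69) were not called, although mutant and control arrays did not overlap there either. The hippocampus G9a mutants sat within 2.40 to 2.45, against 2.63 to 2.84 in controls.

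**Figure D2:**
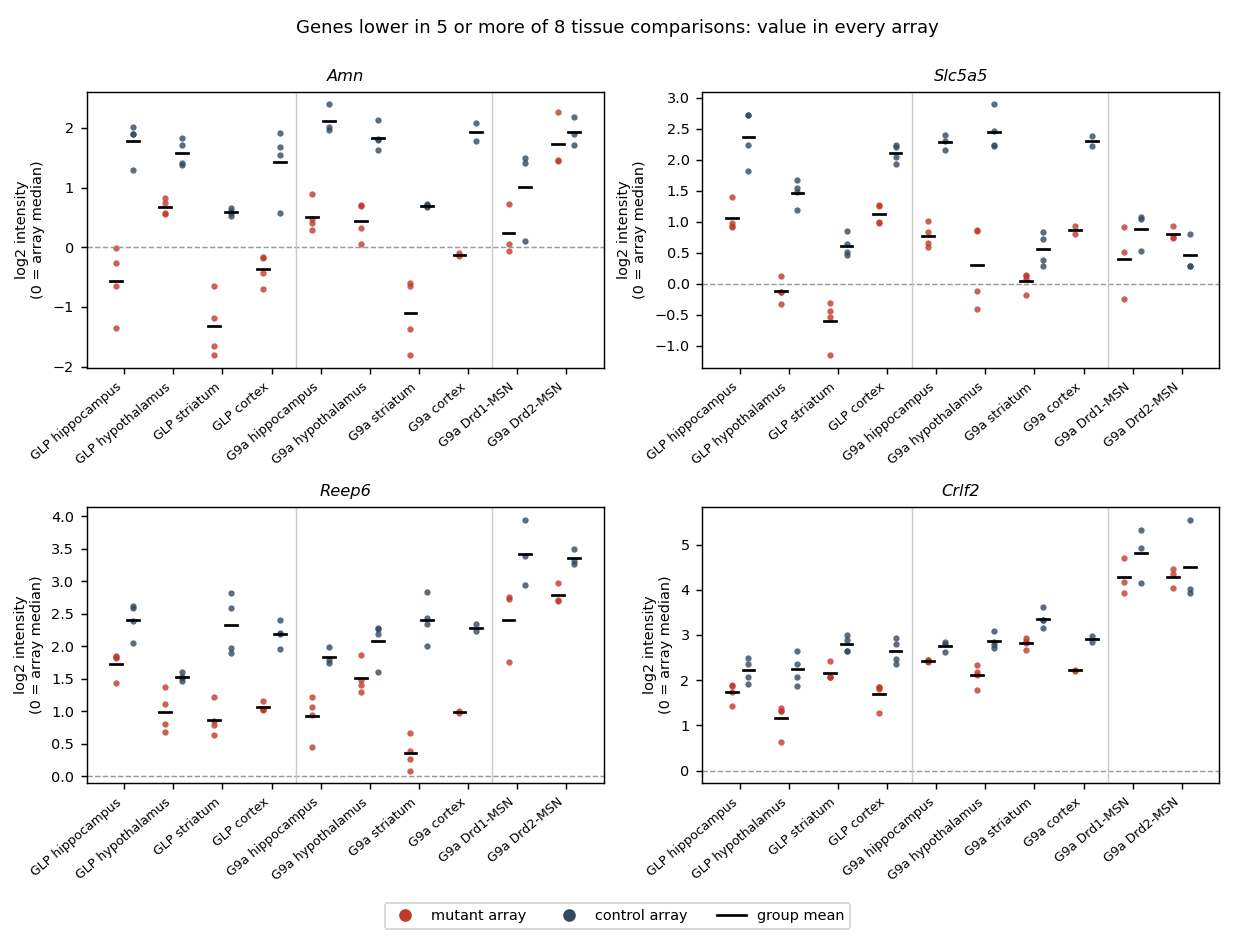
Log2 intensity in every array (vertical axis, 0 is the array median) for Amn, Slc5a5, Reep6 and Crlf2 in 10 comparisons (horizontal axis); mutant arrays are red and left of control arrays in dark grey, and bars are group means. For Amn, Slc5a5 and Crlf2 every red point of a tissue lies below its grey points; for Reep6 this holds in 7 of 8 tissues, and in the pools red and grey points mix for Amn, Slc5a5 and Crlf2.

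Il17rc, the interleukin-17 receptor subunit, was above the array median only in the striatum among the tissues, and was tested in that region alone. In the GLP striatum it stood at -0.10, 0.25, 0.00 and -0.36 in mutants, against 1.89, 1.72, 1.11 and 1.11 in controls, a difference of -1.51 (SE 0.15) or at least 2.63-fold lower. In the G9a striatum it stood at -0.29, -0.43, -0.21 and 0.13 in mutants, against 1.16, 0.87, 1.06 and 1.25 in controls. Mutants and controls did not overlap in either deletion, and the G9a difference of -1.28 (SE 0.15) was at least 2.07-fold. In the other regions all mutant arrays lay at -1.62 to -0.40 and all control arrays at -1.54 to -0.14, with differences between -0.12 and 0.13. Both groups were below the median there, so no fold is given. The other Il17rc probe set, 1457471_at, lay far below the median in every array, at -3.54 to -1.68 in mutants and -3.55 to -1.69 in controls.

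Kazald1 lay above the array median in hypothalamus in mutants and controls and in cortex in controls, and was called lower in the hypothalamus of both deletions and in the GLP cortex. Kazald1 in the GLP hypothalamus stood at 0.92, 0.57, 0.03 and 0.79 in mutants, against 1.91, 1.91, 1.10 and 1.52 in controls. The difference was -1.03 (SE 0.19), lost as a call with the compared groups fitted alone. In the G9a hypothalamus it stood at 0.92, 0.87, 0.85 and 0.40 in mutants, against 1.98, 1.61, 1.44 and 1.67 in controls (-0.91, SE 0.19), lost as a call alone and under the block. In the GLP cortex all 4 mutants lay below the median, at -0.74 to -0.32, against 0.53 to 1.05 in controls, at least 1.68-fold lower. The G9a cortex differed by -0.79 (SE 0.26) with no overlap and was not called. In hippocampus and striatum Kazald1 lay near the median in both groups, at -0.88 to 0.58 in mutants and -0.39 to 0.31 in controls. The G9a hippocampus difference of 0.29 (SE 0.20) ran the other way and was not called.

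C1qtnf12, which encodes adipolin, was read by 4 probe sets, and the brightest, 1439422_a_at, lay well above the array median in every array. It was called lower in striatum and cortex of both deletions. In the GLP cortex it stood at 3.90, 3.85, 3.83 and 3.90 in mutants, against 4.75, 4.75, 4.75 and 4.40 in controls, 57.8% of control (-0.79, SE 0.10). In the G9a cortex it stood at 3.91 and 3.86 in mutants, against 4.75 and 4.65 in controls (-0.82, SE 0.15). The 6 mutant cortex arrays thus spanned 0.086, the 6 control arrays 0.36. In the striatum it fell to 70.8% of control in G9a mutants, at 5.44 to 5.52 against 5.72 to 6.13, and to 73.7% in GLP mutants, at 5.21 to 5.38 against 5.36 to 5.92. The GLP striatum groups overlapped by a narrow margin, and that call was lost without control 1 or 2, with the compared groups fitted alone and under the block. In hippocampus and hypothalamus the differences were small, between -0.31 and 0.17, and none was called. G9a mutant and control arrays still did not overlap there, at 4.38 to 4.54 against 4.58 to 4.94 in hippocampus. In the G9a hypothalamus they lay at 4.24 to 4.50 against 4.54 to 4.70. The GLP groups overlapped in both regions.

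The other C1qtnf12 probe sets differed in how far they followed it. Probe set 1417393_a_at was called lower in the same 4 tissues, in a fit of all probe sets, by -0.83 (GLP cortex), -0.84 (G9a cortex), -0.50 (GLP striatum) and -0.40 (G9a striatum). Probe set 1448687_at had values of -0.63, -0.78, -0.47 and -0.20 there and was not called. It differed by -0.63 in the G9a hypothalamus, where 1417393_a_at differed by 0.00. Probe set 1455264_at lay near the array median, at -0.55 to 1.27 in mutants and -0.68 to 1.39 in controls, and was not tested in cortex and not called in the other tissues.

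**Figure D3:**
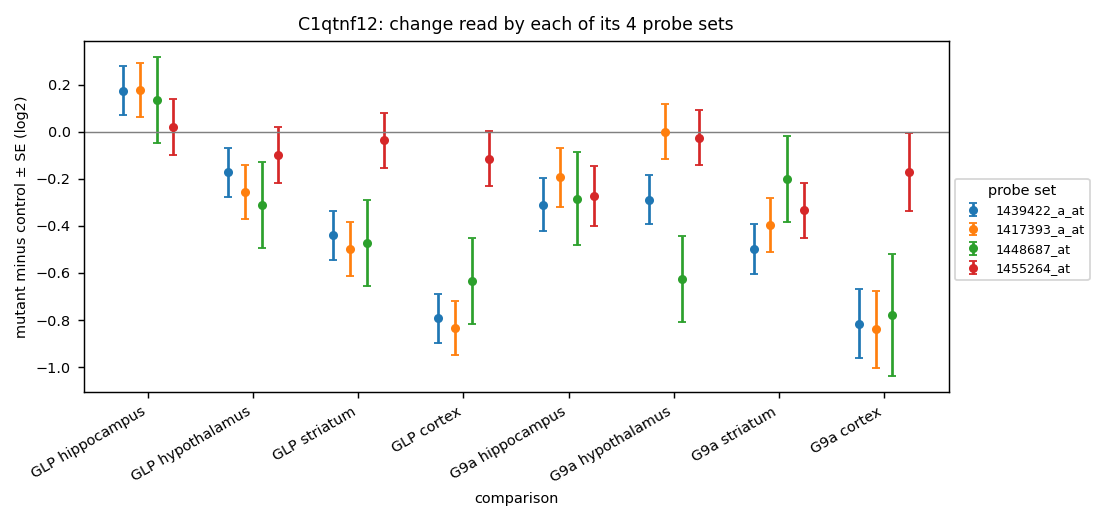
Change of C1qtnf12 in the 8 tissue comparisons (horizontal axis) read by each of its 4 probe sets, as mutant minus control on the log2 scale with the standard error (vertical axis). The 3 brighter probe sets lie below 0 in striatum and cortex, at -0.84 to -0.20, while 1455264_at lies between -0.33 and -0.04 there.

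**Figure D4:**
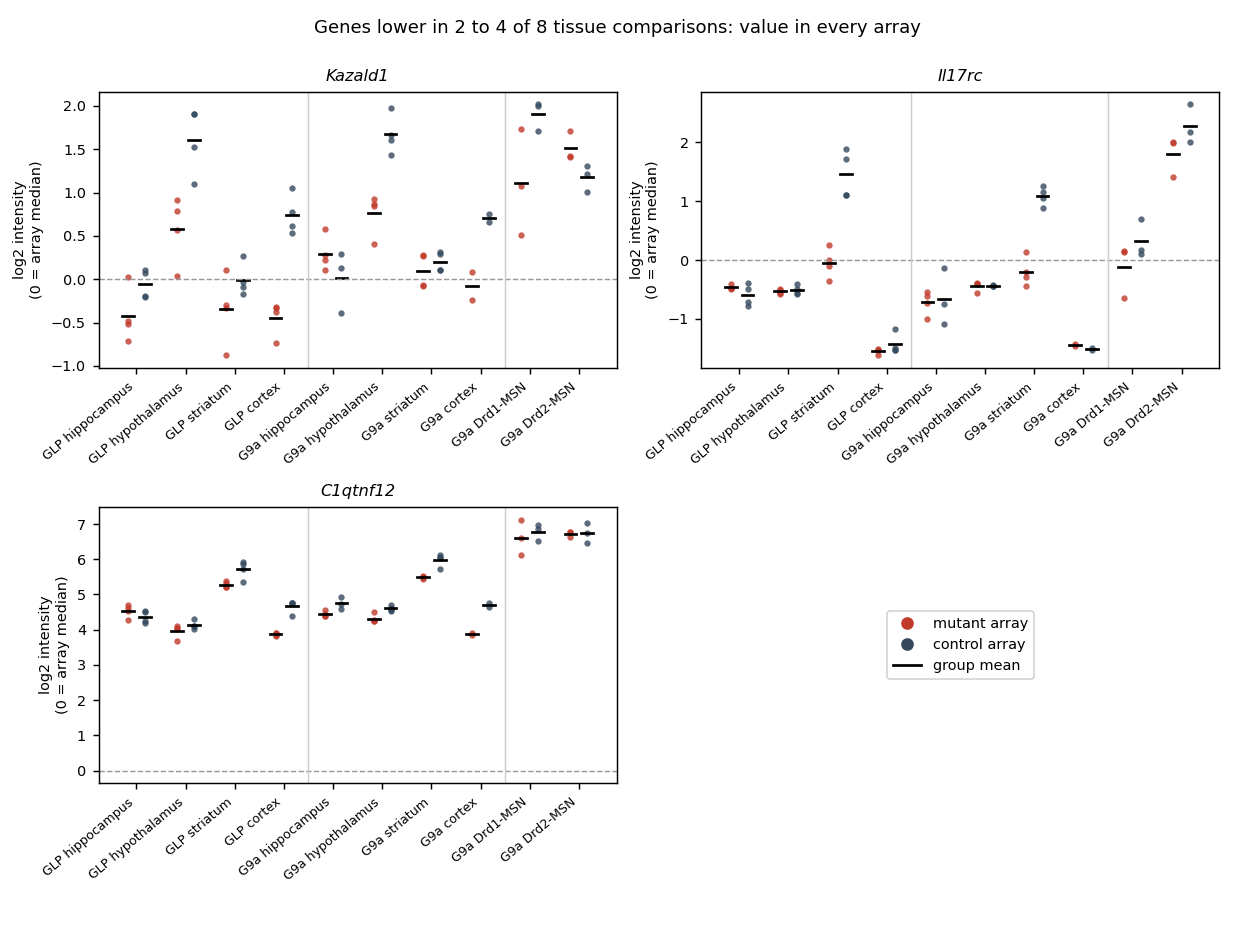
Log2 intensity in every array (vertical axis, 0 is the array median) for Kazald1, Il17rc and C1qtnf12 in 10 comparisons (horizontal axis); mutant arrays are red and left of control arrays in dark grey, and bars are group means. Il17rc rises above 0 among the tissues only in the striatum, where red points lie below grey ones, and Kazald1 separates in hypothalamus and cortex.

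Loss of GLP was set against loss of G9a in each region by an interaction in the same fit. None of the 7 genes passed in any region, where 0.1% of all genes tested passed in the hippocampus, 0.00835% in the hypothalamus, 0.00847% in the striatum and 0.017% in the cortex. Il17rc was tested in the striatum only. The lowest adjusted p was 0.414, for C1qtnf12 in the hippocampus, which changed by 0.17 in GLP mutants and -0.31 in G9a mutants (difference 0.48, SE 0.15). Slc5a5 in the striatum changed by -1.22 in GLP and -0.52 in G9a mutants (difference -0.71, SE 0.28, adjusted p = 0.735). All 4 GLP mutants lay below the median there, and with such values set to it the changes were -0.61 in GLP and -0.47 in G9a mutants. Reep6 in the striatum changed by -1.45 in GLP and -2.05 in G9a mutants (difference 0.60, SE 0.26, adjusted p = 0.735). Amn in the hippocampus changed by -2.35 in GLP and -1.61 in G9a mutants (difference -0.74, SE 0.36, adjusted p = 1.00). All 4 GLP mutants lay below the median here too, and with such values set to it the changes were -1.78 in GLP and -1.61 in G9a mutants. By Y-linked signal all GLP tissue arrays matched females, while G9a groups held males and females, or males alone in the cortex. In the cortex sex and the gene deleted thus cannot be told apart, in these differences or between GLP and G9a controls. In the other regions each G9a group held 1 or 2 arrays matching females, but sex was not in the fit. Sex and the gene deleted are therefore mixed there too, and arrays matching females were not compared alone. With standard errors of 0.15 to 0.42, differences of this size could not be called, and the test does not show that both deletions act alike.

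The size of the change passed an F test across the 4 regions for 6 of 14 pairs of gene and deletion, which, as the genes were chosen on these contrasts, is a description. Amn (adjusted p = 0.0873 in GLP and 1.00 in G9a mutants), Crlf2 (0.664 and 0.941) and Slc5a5 in GLP mutants (1.00) were among those that did not pass. The F tests took arrays of different regions as independent, and the labels do not say whether regions share mice. The Slc5a5 difference lay between -2.15 and -0.52 over the G9a tissues, largest in the hypothalamus and smallest in the striatum. Reep6 had the opposite order among those regions, with -0.57 in the G9a hypothalamus and -2.05 in the striatum. Slc5a5 controls of the G9a striatum averaged only 0.56, with mutants at -0.18 to 0.13, which limits the fall that can be read there. With values below the median set to it, the Slc5a5 differences were -2.02 in the G9a hypothalamus and -0.47 in the G9a striatum. Over the 8 tissue comparisons the changes of Slc5a5 and Reep6 ran against each other (Pearson r = -0.82), while those of Kazald1 and Crlf2 ran together (r = 0.92); the 8 points share 4 regions and these are the extremes of 21 gene pairs. Il17rc was called in the striatum, its one tested region, C1qtnf12 in striatum and cortex, and Kazald1 in hypothalamus and cortex.

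Levels in control tissue differed by region for nearly every gene on these arrays: 91.5% of genes passed the F test over 4 regions in GLP controls and 85.0% in G9a controls, and all 7 genes did in both. These F tests too took arrays of different regions as independent, without knowledge of whether regions share mice. The order of regions is given here as a description. For Amn, hippocampus was highest in both sets of controls, at 1.78 ± 0.33 in GLP (SD, n = 4) and 2.12 ± 0.24 in G9a (SD, n = 3), and striatum lowest, at 0.59 ± 0.06 and 0.70 ± 0.02 (SD, n = 4 each). Hippocampus, hypothalamus and cortex overlapped for Amn in GLP controls, and GLP cortex reached down to the striatum through control 4 at 0.58. In G9a controls all 3 lay clear of the striatum. Slc5a5 had the same low striatum, at 0.61 ± 0.17 in GLP and 0.56 ± 0.26 in G9a controls (SD, n = 4 each). Its hypothalamus differed between the sets, below hippocampus and cortex in GLP controls at 1.47 ± 0.21 and highest in G9a controls at 2.45 ± 0.31 (SD, n = 4 each), with hippocampus, cortex and hypothalamus overlapping in G9a controls.

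Reep6 was lowest in hypothalamus in GLP controls (1.53 ± 0.06, SD, n = 4) and in hippocampus in G9a controls (1.84 ± 0.13, SD, n = 3). All neighbouring regions of Reep6 overlapped in G9a controls, and its F test there was lost without any 1 of 6 control arrays. Crlf2 was highest in striatum in both sets, at 2.80 ± 0.17 in GLP and 3.36 ± 0.20 in G9a controls (SD, n = 4 each), clear of the next region only in G9a controls. Il17rc in striatum stood at 1.46 ± 0.40 in GLP and 1.08 ± 0.16 in G9a controls (SD, n = 4 each). Its other regions lay below the array median and are not ranked. Kazald1 was highest in hypothalamus, at 1.61 ± 0.38 in GLP and 1.67 ± 0.22 in G9a controls (SD, n = 4 each), then cortex at 0.74 and 0.71, with striatum and hippocampus overlapping near 0. C1qtnf12 was highest in striatum, at 5.72 ± 0.25 in GLP and 5.99 ± 0.18 in G9a controls (SD, n = 4 each), more than 1 above the next region, with the other regions at 4.13 to 4.75.

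Mutant levels kept these regional orders only in part. The spread of Slc5a5 over regions, highest minus lowest group mean, was 0.82 in G9a mutants against 1.89 in G9a controls. In GLP it was 1.73 in mutants against 1.76 in controls, but 1.12 against 1.76 with values below the median set to it. For Reep6 it was 1.16 in G9a mutants against 0.57 in G9a controls, and 0.86 in GLP mutants against 0.88 in GLP controls. These spreads follow from the changes above and were not tested.

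**Figure D5:**
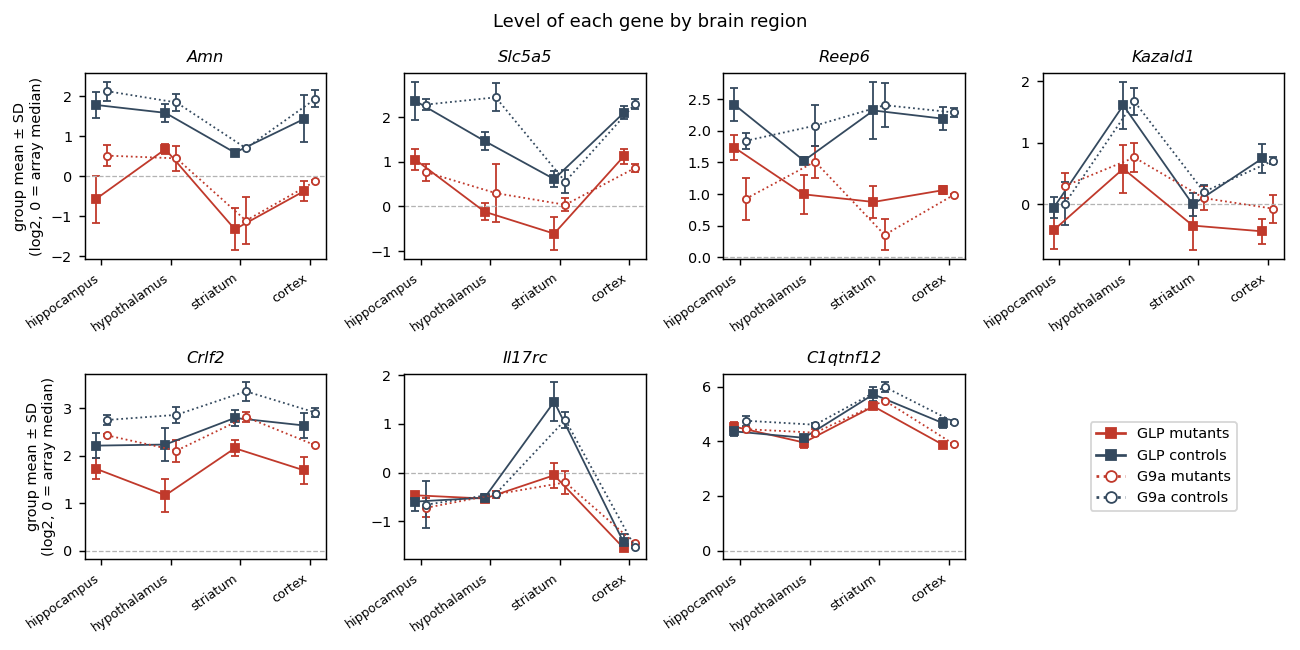
Mean log2 level ± SD (vertical axis, 0 is the array median) of each gene in 4 brain regions (horizontal axis); red marks mutants, dark grey controls, filled squares GLP and open circles G9a, and lines only join the means of a group. Il17rc peaks in striatum in controls (1.46 and 1.08) and lies near 0 there in mutants, and Amn and Slc5a5 have their lowest control means in striatum.

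In polyribosome-bound RNA of striatal neurons, 0 of the 7 genes were called lower and 0 higher by limma, as were 0.0% and 0.0248% of all genes tested in Drd1-MSN and 0.0% and 0.0165% in Drd2-MSN. At an unadjusted limit of 0.05, 2 of the 7 (Reep6 and Kazald1) were lower in Drd1-MSN pools labelled mutant, as were 1.51% of all genes tested. In Drd2-MSN pools 0 were lower, against 0.586% of all genes, in a fit that did not pair the pools. Reep6 stood at 2.73, 2.76 and 1.76 in Drd1-MSN mutant pools, against 2.95, 3.38 and 3.95 in control pools. The groups did not overlap, as for 3.82% of all genes, with a difference of -1.01 (SE 0.34, adjusted p = 0.942), or -1.18 without mutant 2. In Drd2-MSN, Reep6 stood at 2.69, 2.97 and 2.72 in pools labelled mutant, against 3.50, 3.27 and 3.31 in control pools (-0.57, SE 0.34, adjusted p = 1.00). These groups did not overlap either, as for 2.56% of all genes. With the replicate number as a block, the Reep6 difference in Drd2-MSN had an SE of 0.25 (unadjusted p = 0.0497 by limma) and was not called. In whole striatum the same gene stood at 24.1% of control in G9a mutants, where the deletion was driven by Camk2a-Cre.

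Other members differed less or scattered more in the pools. Kazald1 stood at 1.74, 0.51 and 1.07 in Drd1-MSN mutant pools, against 1.71, 2.00 and 2.02 in control pools, a difference of -0.80 (SE 0.30, adjusted p = 0.942) and -0.50 without mutant 2. Amn stood at 0.73, -0.06 and 0.05 in Drd1-MSN mutant pools, against 0.11, 1.49 and 1.42 in control pools, a difference of -0.76 (SE 0.39), between -1.21 and -0.52 without each pool. Control 1 lay among the mutants, and in Drd2-MSN the Amn difference was -0.21 (SE 0.39) with overlapping pools, -0.067 without mutant 1 and -0.48 without mutant 2. Slc5a5 differed by -0.49 (SE 0.30) in Drd1-MSN, of which -0.18 stood without mutant 2, and by 0.35 (SE 0.30) in Drd2-MSN. C1qtnf12 differed by -0.17 and -0.03 (SE 0.26 each), and its Drd1-MSN difference was -0.42 without mutant 2 and 0.086 without mutant 3. Crlf2 stood at 4.71, 3.93 and 4.18 in Drd1-MSN mutant pools, against 4.16, 5.32 and 4.93 in control pools (-0.53, SE 0.44; -0.85 without control 1 and -0.27 without control 2), and at 4.35, 4.46 and 4.04 in Drd2-MSN pools labelled mutant, against 5.55, 3.93 and 4.02 in control pools (-0.22, SE 0.44). The Crlf2 groups overlapped in both, and without Drd2-MSN control 1 the difference was 0.31. Kazald1 was the member that lay higher in every Drd2-MSN pool labelled mutant, at 1.42, 1.71 and 1.41 against 1.21, 1.31 and 1.01 in control pools (0.34, SE 0.30), and was not called. The median difference of the 7 genes was -0.53 in Drd1-MSN and -0.21 in Drd2-MSN, where the median of all genes tested lay at -0.08 and 0.04. Of the Y-linked gene Eif2s3y the Drd1-MSN mutant pools held 4.24, -0.22 and 4.47, against -1.66, -1.09 and 0.34 in control pools, so sex, given as matched in the labels, and deletion cannot be told apart in that comparison.

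Il17rc differed between the neuron types. In control pools it stood at 0.17, 0.69 and 0.11 in Drd1-MSN, against 2.64, 2.00 and 2.18 in Drd2-MSN. The Drd1-MSN minus Drd2-MSN difference was -1.95 (SE 0.31, adjusted p = 0.00166 by limma), in a comparison where 15.7% of all genes were called, and it stayed called without each control pool (highest adjusted p = 0.0110). Eif2s3y was higher in the Drd2-MSN control pools, at 3.09, 4.67 and 3.02, than in the Drd1-MSN ones above, and its part was not tested. None of the other 6 genes passed there. Between pools labelled mutant and control pools, Il17rc differed by -0.47 (SE 0.31) in Drd2-MSN and -0.44 (SE 0.31) in Drd1-MSN, neither called. Without each pool these lay between -0.61 and -0.27 in Drd2-MSN, weakest without mutant 2, and between -0.57 and -0.17 in Drd1-MSN, weakest without mutant 3.

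Genes of the pathways around the 7 members were read from 8 lists, where 2.47% of all genes tested fell in at least 1 tissue. For rises, 0.634% (G9a cortex) to 2.27% (G9a hippocampus) of all genes tested were called higher in a single tissue. A share rising in at least 1 tissue was not taken. Of 7 tested genes around cubilin and vitamin B12 uptake, 0 fell, and Clcn5, an endosomal chloride transporter, rose by 0.81 (SE 0.15) in the GLP hypothalamus and Lrpap1, a chaperone of the LDL receptor family, by 0.33 (SE 0.09) in the G9a striatum. Of 4 tested genes of iodide and thyroid hormone handling, Dio2, the deiodinase that activates thyroid hormone, fell by 0.66 (SE 0.17) in the GLP hypothalamus. Kcne2, a potassium channel subunit that is also a choroid plexus marker, rose by 3.53 (SE 0.71) in the GLP hippocampus, where 12 of 13 choroid plexus markers rose. None of 3 tested SLC5 transporters and none of 8 tested IL-17 ligands and receptors passed in any tissue. Of 13 tested REEP and reticulum-shaping genes only Atl3 passed, falling by 0.35 (SE 0.09) in the G9a striatum. Of 7 tested genes of TSLP signalling only Stat3 passed, rising by 0.50 (SE 0.14) in the G9a hypothalamus.

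Among relatives of the secreted members, 3 of 16 tested IGF-binding and Kazal-domain genes passed in any tissue. Fst, which encodes the activin inhibitor follistatin, fell in hippocampus and striatum of both deletions, by between 1.26 in the GLP hippocampus and 2.71 in the G9a striatum. Igfbp5 rose in the GLP cortex by 0.67 (SE 0.15) and in the G9a hippocampus by 0.85 (SE 0.16), and Igfbp3 rose in the G9a hypothalamus by 0.69 (SE 0.17). Of 12 tested C1q and TNF related genes 1 passed: Cbln1, a synapse organiser, rose in the G9a hippocampus by 1.61 (SE 0.37) and in the G9a striatum by 1.21 (SE 0.34). The partner genes that fell in 1 or more tissues were thus Dio2, Atl3 and Fst.

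The 7 genes lie on 7 different chromosomes. The 28 coding genes that flank them are the nearest pair on each side in the RefSeq table. Of these, 21 are on the array and 17 were tested in at least 1 tissue. Of the 17, 0 were called lower and 0 higher in any tissue. Of all genes tested, 2.47% fell in at least 1 tissue, and 0.634% to 2.27% were called higher in a single tissue. None of the genes flanking Crlf2 is on the array. Plcxd1, picked after its values were seen, lies on chromosome 5 like Crlf2, with 6 coding genes between them. It was lower in 5 of 8 tissues.

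Among 8981 genes with an SD of at least 0.3 over the 16 tissue group means, the 3 most like each member by Pearson r were picked, passing over clone-named genes, of which 3 stood before Zfyve27. For Amn these were Rps4l (r = 0.861), Slc5a5 (0.812) and Hook2 (0.773), and for Slc5a5 they were Epha10 (0.833), Amn (0.812) and Akain1 (0.769). For Reep6 they were Klc3 (0.834), Amn (0.706) and Cd99 (0.699), so Amn appears for both other broadly lower genes. For Kazald1 they were Dync2h1 (0.867), Sfmbt2 (0.862) and Zfyve27 (0.823), none of which was called in any tissue. For Crlf2 they were Ell2 (0.866), Trpm4 (0.842) and Xdh (0.810). For Il17rc they were Ago4 (0.917), Kyat3 (0.916) and Hbegf (0.915), and for C1qtnf12 Nipal4 (0.942), Ppp2r2a (0.933) and Id4 (0.924). The 16 means share regions and, in part, arrays of the same contrast that chose the members, so these values carry no test. Besides the members, Rps4l, Epha10 and Cd99 fell in 3 tissues each and Klc3, Ell2, Ago4 and Id4 in 1 each. Of the 12596 genes tested in any tissue, 311 fell in at least 1 and 29 in at least 3. Mutant means enter r, so falls among genes picked this way are partly built in.

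Across the 21 pairs of members, group means correlated between -0.41 (Slc5a5 and Il17rc) and 0.81 (Amn and Slc5a5), with a median of 0.32. Around their group means, over 59 tissue arrays, single arrays of Amn and Slc5a5 varied together most (r = 0.47), and the other pairs lay between -0.17 and 0.34. The arrays share tissue dissection and array processing, and no test was made.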

How the data were processed

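The deposited values are 1 intensity per probe set and array, linear, with a median of 1 in every array. The authors made these intensity values with GCRMA, per the submitters' processing notes (version and grouping of arrays not given in the sources used here). Groups came from titles; replicates are called biological in the series' design text. Of 45101 probe sets, 34945 carried 1 gene symbol, 932 several and 9160 none, and 64 controls were left out.

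Values were used as log2. Each gene was read by its brightest probe set, by mean over the arrays fitted, and tested where the number of compared arrays above the array median reached the size of the smaller group, so a gene dim throughout a region was not tested there. limma 3.58.1 (R 4.3.3) fitted 16 tissue groups (59 arrays) together and 4 pool groups (12 arrays) apart, with an intensity trend and Benjamini-Hochberg adjustment per comparison at 0.05. The fit was tested on simulated data.

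The members and gene lists were chosen with earlier results of these data known. Named besides members were the deleted genes, up to 3 called genes per list and the 3 genes most like each member. Alternatives were a floor at the median, log2(value + 1), no filter, quantile normalization, every probe set, no trend, compared groups alone, the replicate number as a block, and leaving out each array. Deviations of same-numbered arrays correlated at 0.168 to 0.482 in the Drd2-MSN pools. Correlations were also positive in every pair, but from a lower value, in GLP hippocampus (0.063), GLP cortex (0.060) and G9a cortex (0.028). In the G9a hypothalamus they ran from -0.012 to 0.635. A number was taken to pair samples only in the Drd2-MSN pools, and pairing in the tissues was not settled. The main fit did not use that pairing, which entered through the replicate block alone. No array was a copy of another (highest correlation 0.998). A G9a hypothalamus control is numbered differently in title and source name, and the title was used. Y-linked signal was balanced between mutants and controls in the tissues to within 1 array per group, but all GLP tissue arrays matched females and G9a groups did not. RefSeq supplied promoters and gene order.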

Additional observations from a re-analysis of the deposited data

Results flagged for a closer look

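Single arrays stood far from the rest of their group of 4 in 13 of 91 groups tested with Dixon's criterion, which chance meets in about 1 of 20 groups. In GLP mutants, Slc5a5 was high in hippocampus mutant 4 (1.40 against 0.91 to 0.97 in the others), and Reep6 was low in hippocampus mutant 1 (1.43 against 1.82 to 1.85) and high in cortex mutant 1 (1.16 against 1.02 to 1.04). Kazald1 was low in GLP cortex mutant 3 (-0.74 against -0.38 to -0.32) and G9a hypothalamus mutant 4 (0.40 against 0.85 to 0.92). Crlf2 was low in GLP hypothalamus mutant 3 (0.64 against 1.31 to 1.39) and cortex mutant 3 (1.27 against 1.80 to 1.85), and high in GLP striatum mutant 1 (2.41 against 2.07 to 2.08). Il17rc, below the array median in both, was low in G9a hypothalamus mutant 3 (-0.56 against -0.42 to -0.40) and high in GLP cortex control 1 (-1.18 against -1.53 to -1.49). C1qtnf12 was high in G9a hypothalamus mutant 2 (4.50 against 4.24 to 4.27) and low in GLP cortex control 4 (4.40 against 4.75 to 4.75). Reep6 was low in G9a hypothalamus control 2 (1.60 against 2.19 to 2.28).

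The size of the change differed between the 4 regions of a deletion, by a moderated F test in limma, for 6 pairs of gene and deletion. In GLP mutants these were Il17rc (adjusted p = 3.50e-07) and C1qtnf12 (adjusted p = 0.000165), where 1.07% of all genes passed. In G9a mutants they were Il17rc (adjusted p = 4.69e-05), Reep6 (0.00110), Slc5a5 (0.00197) and Kazald1 (0.0238), where 1.32% of all genes passed. The genes were chosen on these contrasts, so the values are a description. The fit also took arrays of different regions as independent, and the labels do not say whether regions share mice. Il17rc was below the array median outside the striatum in mutants and controls alike.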

How the results depend on the processing

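Of the 35 tissue calls, 26 stayed called under all 8 alternatives, 28 without each single array and 23 under both; over all 8 tissues the count was 29 to 35. With the compared groups alone, 2 genes were called in the GLP hypothalamus and 2 in the G9a hypothalamus, against 4 in each. With the replicate block, which also fits the groups alone, 2 were called in each of these and 3 in the GLP striatum, against 6. Without each array in turn the counts were 2 to 4 in the GLP hippocampus, 3 to 4 in the GLP hypothalamus, 4 to 6 in the GLP striatum, 4 to 5 in the G9a hypothalamus and striatum, and 2 to 4 in the G9a cortex, where 2 were left without control 1. They stayed at 6 in the GLP cortex and 3 in the G9a hippocampus. Genes whose change differed by region in GLP mutants numbered 4 with values floored at the median and 4 with log2(value + 1), against 2, and 2 to 3 without each array. The block changed no other count by more than 1.5 times, and none in Drd2-MSN, where the numbers were taken to pair the pools. The pools gave 0 calls under every alternative. Without each pool, the difference ranged from -0.42 to 0.086 for C1qtnf12 in Drd1-MSN, from -0.18 to 0.11 for C1qtnf12 in Drd2-MSN and from -0.50 to 0.31 for Crlf2 in Drd2-MSN. The cause of these shifts was not tested, except that log2(value + 1) and the floor shrink differences near the median by construction, and that fewer arrays enter the fits without an array or with groups alone. Mutant signals below the median limit Amn in both striata and cortices and the GLP hippocampus. They limit Slc5a5 in the GLP striatum and hypothalamus and, in some arrays, in the same G9a regions. They also limit Kazald1 in the GLP cortex and, with controls, in hippocampus and striatum, and Il17rc.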

Other observations

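GLP control 3 was the highest control for Crlf2 in hippocampus (2.49), hypothalamus (2.65), striatum (3.00) and cortex (2.93), and mutant 3 the lowest mutant in hippocampus (1.42), hypothalamus (0.64) and cortex (1.27), but not in the striatum. Crlf2 was picked out from all members after their values were seen. No other member had the same highest GLP control in all these regions. For Amn it was control 3 in hippocampus, 1 in hypothalamus, 4 in striatum and 2 in cortex. The labels do not say whether equal numbers mark the same mouse.

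In humans, CRLF2, CD99 and PLCXD1 lie in the pseudoautosomal region shared by the X and Y chromosomes; in mice Crlf2 and Plcxd1 lie on chromosome 5, with 6 coding genes between them, and Cd99 on chromosome 4. These genes were picked after their values were seen. Plcxd1 was lower in 5 of 8 tissues, with changes of -0.81 to -0.20, and Cd99 in 3 of 8, with changes of -1.09 to -0.42. Of other genes of that human region, Gtpbp6 changed by -0.30 to 0.22 and Csf2ra by -0.22 to 0.13, and neither was called in any tissue.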
